A study of Mus musculus with 6 samples.

Results

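Cytosolic and mitochondrial heat shock proteins were followed in mouse tongue through 10 genes fixed by name: Hspa1a, Hspa1b, Hspa8, Hspb1, Dnajb1, Hsph1, Hsp90aa1, Hsp90ab1, Hspd1 and Hspe1. Of these, 9 were measured by 22 probe sets that the platform annotation gives to that gene alone, among 18193 genes measured in the same way. Hsp90ab1 had no listed probe set and was not analysed here. The main probe set of a gene was the one with the highest mean log2 signal over all 6 arrays, and its other probe sets served as a check. Expression was compared between tongues of 3 adult C57BL/6J mice that drank 4-nitroquinoline 1-oxide (4NQO), which forms DNA adducts and causes oral tumours, at 100 μg/ml over 8 weeks and tongues of 3 adult non-treated C57BL/6J mice. Both groups are of this inbred strain, and the labels name no allele or further agent. Total RNA of each tongue was hybridized to 1 Affymetrix mouse array. The RNA came from tongue tissue, and the part of the tongue taken is not stated. Each value is an average over muscle, squamous epithelium and other cells. Fewer cells of a type and less RNA per cell cannot be told apart.

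Heat shock proteins are chaperones that keep other proteins folded. HSP70 proteins bind exposed stretches of unfolded clients, HSP40 partners deliver the clients and start ATP hydrolysis, and HSP110 proteins exchange the nucleotide. HSP90 proteins finish the maturation of kinases and receptors, small heat shock proteins hold aggregating proteins in a soluble form, and HSP60 with its lid HSP10 forms the folding chamber of mitochondria. Under heat or other protein damage, heat shock factor 1 (HSF1) binds heat shock elements, inverted repeats of GAA, and induces several of these genes, while Hspa8 is made constitutively. In squamous epithelium, Hspb1 is abundant in differentiating keratinocytes.

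The sequence upstream of the transcription start is shown for Hspa1b and Hspb1, the members with the smallest p, and for Hspa1a, the near-identical neighbour of Hspa1b. The sequences are from RefSeq on build GRCm38.p6, with capitals for each match to GAANNTTC or TTCNNGAA, the 2 forms of a heat shock element of paired units. Both forms read the same on either strand and may overlap. The windows of 250 bases lie at chr17:34959239-34959488 on the minus strand for Hspa1b, at chr17:34972157-34972406 on the minus strand for Hspa1a and at chr5:135887669-135887918 on the plus strand for Hspb1.
Hspa1b: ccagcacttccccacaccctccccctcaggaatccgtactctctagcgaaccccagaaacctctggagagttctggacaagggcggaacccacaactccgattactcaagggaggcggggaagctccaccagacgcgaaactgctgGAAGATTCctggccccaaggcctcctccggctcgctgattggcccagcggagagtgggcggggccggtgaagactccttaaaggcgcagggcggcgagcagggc
Hspa1a: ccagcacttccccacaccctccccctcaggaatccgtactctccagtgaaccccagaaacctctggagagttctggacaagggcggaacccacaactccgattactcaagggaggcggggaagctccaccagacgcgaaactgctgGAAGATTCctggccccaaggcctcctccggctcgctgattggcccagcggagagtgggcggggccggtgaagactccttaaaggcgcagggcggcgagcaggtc
Hspb1: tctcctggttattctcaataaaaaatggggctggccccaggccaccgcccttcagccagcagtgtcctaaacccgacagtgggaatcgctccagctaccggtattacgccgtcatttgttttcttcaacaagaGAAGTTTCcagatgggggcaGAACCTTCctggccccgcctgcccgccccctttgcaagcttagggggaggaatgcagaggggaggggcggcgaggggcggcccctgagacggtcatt
Hspa1a and Hspa1b had the same base at 247 of 250 positions without gaps, with 1 element in the same place. Hspb1 had 2 elements. A longer run of overlapping elements was found for the mitochondrial pair Hspd1 and Hspe1, which are transcribed in opposite directions on chromosome 1 and overlap at their starts. The stretch at chr1:55088053-55088082 was upstream of the inner of 2 annotated starts of Hspd1 on the minus strand, and so inside the gene's outer bounds, and upstream of the start of Hspe1 on the plus strand. It is shown with the 30 bases around the element of Hsph1 at chr5:149636351-149636380 on the minus strand.
Hspd1: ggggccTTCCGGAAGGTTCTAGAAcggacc
Hspe1: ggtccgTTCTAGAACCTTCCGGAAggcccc
Hsph1: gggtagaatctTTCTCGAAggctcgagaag

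Windows were listed for 7 of the 10 genes, and those of 6 genes held at least 1 heat shock element, with Dnajb1 as the exception. The window of the outer start of Hspd1 held 0. Of 27025 genes with windows, 14.5% had one in at least 1 window. A longer element of 3 alternating units was found for Hspd1 and Hspe1, in the stretch they share, and for 0.514% of all genes. The core of the antioxidant response element, TGACNNNGC on either strand, which the stress regulator NRF2 binds, was found for Dnajb1 and Hsph1 and for 11.5% of all genes. A match of letters is a description and does not show binding.

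In 4NQO-treated tongue, 0 of the 9 heat shock protein genes passed limma's test at an adjusted p under 0.05. All 9 measured genes had a log2 fold change above 0, from 0.12 to 0.74 with a median of 0.27, where 47.7% of all genes were above 0 and the median of all genes was -0.01. Among the 5878 genes at least as bright as the dimmest of the 9, 49.4% were above 0. The 9 genes were chosen with earlier results of these data known, so these shares are a description only. Hspa1b and Hspb1 had the smallest p, and only their 95% intervals lay above 0. The 4NQO and control tongues did not overlap for Hspa1b, Hspb1 and Hspe1, 3 of 9 genes, and 9.59% of all genes were higher without overlap, or 12.1% of the bright ones. None of the 9 was lower without overlap, as 7.18% of all genes were. Limma's unadjusted p was under 0.05 for 2 of the 9 genes, both higher, with 6.68% of all genes higher and 3.74% lower at that level. Over all genes, 0.126% were higher and 0.0055% lower at the adjusted threshold. SAM, the permutation method named in the study's methods, also called 0 of the 9 genes. The 95% interval of 8 of the 9 ended below a doubling, and that of Hspa1b ended just above it.

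**Figure D1:**
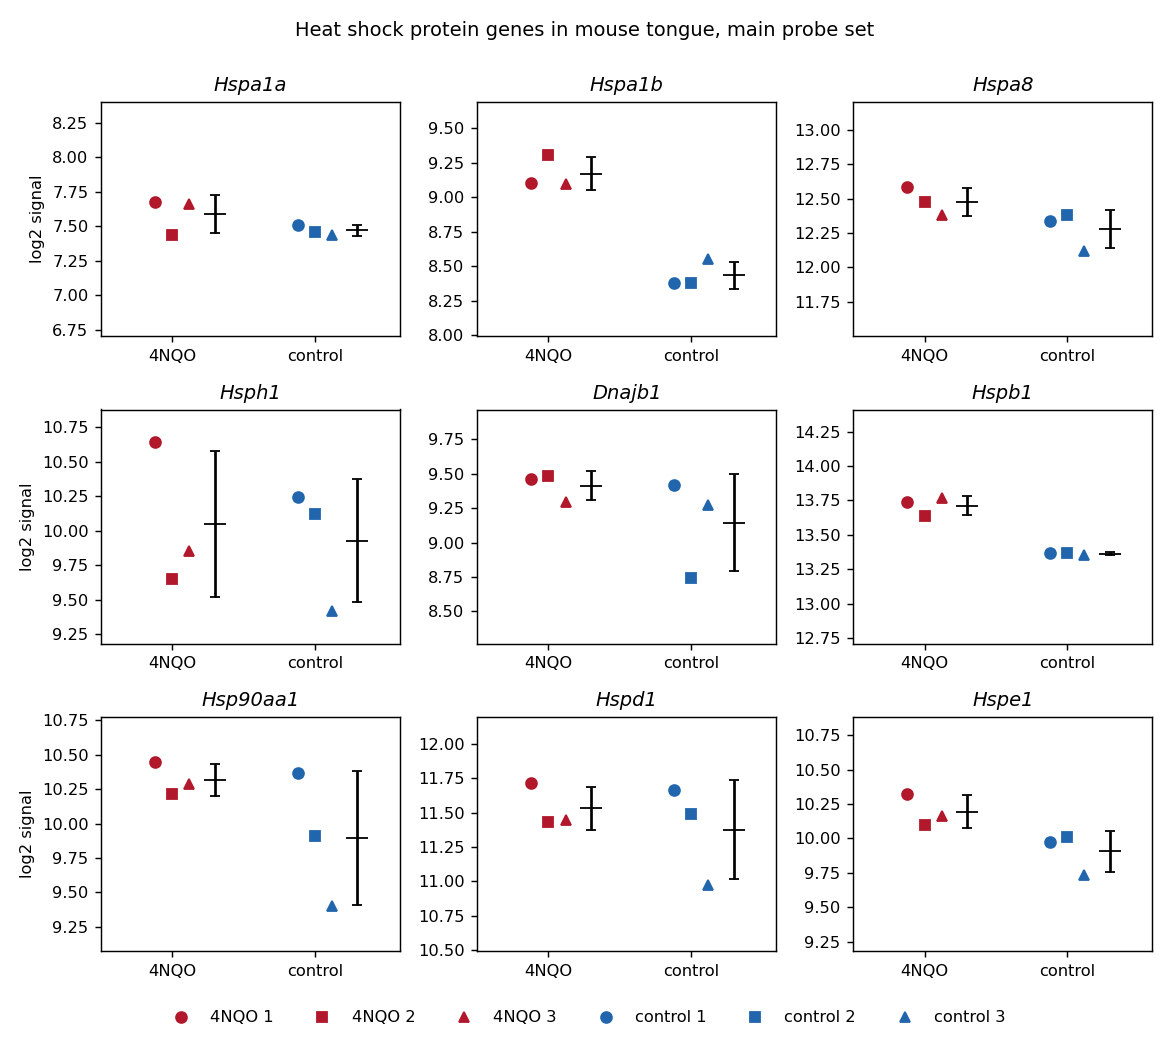
Log2 signal of the main probe set of 9 heat shock protein genes, with 1 symbol for each of 3 4NQO-treated (red, left) and 3 control tongues (blue, right), and the mean with SD in black. Each panel spans the same range of log2 signal around its own centre, and the groups stand apart for Hspa1b, Hspb1 and Hspe1 only.

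Hspa1b, which encodes the stress-inducible HSP70, showed the highest log2 fold change of the 9 genes. By its main probe set 1427127_x_at, the log2 signal was 9.10, 9.31 and 9.10 in 4NQO-treated tongues, against 8.38, 8.38 and 8.55 in control tongues. All 4NQO-treated tongues lay above all control tongues, with a clear space between the groups. This gave a log2 fold change of 0.74 (limma, standard error 0.13, adjusted p = 0.0928), or 1.66-fold with a 95% interval of 1.35 to 2.05. The probe set 1427126_at had 8.80, 9.10 and 9.08 in 4NQO-treated tongues, against 8.27, 8.40 and 8.69 in control tongues, a log2 fold change of 0.54. The dimmer 1452318_a_at had 6.24, 6.65 and 5.88 in 4NQO-treated tongues, against 5.42, 5.55 and 5.60 in control tongues, a log2 fold change of 0.73. The groups did not overlap for either (adjusted p = 0.334 and 0.322 from limma over all probe sets). For the main probe set the unadjusted p from limma was 0.000539, and the exact permutation test of this single gene gave p = 0.1 (two-sided), the smallest value that 3 against 3 tongues allow.

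Hspa1a, the neighbouring gene for a nearly identical HSP70, had 1 probe set, 1452388_at. Its log2 signal was 7.67, 7.43 and 7.66 in 4NQO-treated tongues and 7.51, 7.46 and 7.44 in control tongues. 4NQO 2 was the lowest of all 6 tongues for Hspa1a and the highest for Hspa1b. The log2 fold change of Hspa1a was 0.12 (limma, standard error 0.14, adjusted p = 0.790), and its 95% interval for the fold ran from 0.870 to 1.36. The difference in response between both genes, taken as the log2 signal of Hspa1b minus that of Hspa1a in each tongue, was higher by 0.61 in 4NQO-treated than in control tongues (exact permutation p = 0.1, two-sided, the smallest possible). The copies are near-identical, and Affymetrix gives the suffix _x_at to probe sets that share sequence with other transcripts. The signal of 1427127_x_at, called Hspa1b, may thus hold RNA of Hspa1a. No such suffix marks 1427126_at, which gave 0.54, but its sequence was not checked. The assignment between the copies is uncertain.

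Hspa8, the constitutive HSP70 of the cytosol, had a log2 signal of 12.58, 12.47 and 12.38 in 4NQO-treated tongues, against 12.34, 12.38 and 12.12 in control tongues. The groups met at their edge, with 4NQO 3 and control 2 both at 12.38. The fit gave 0.20 on the log2 scale (limma, standard error 0.11, adjusted p = 0.583), with a 95% interval of 0.959 to 1.37 for the fold. By its suffix, the main probe set 1455789_x_at shares sequence with other transcripts, as does the second bright probe set, 1420623_x_at, which gave 0.15. A dimmer one, 1420622_a_at, had 7.51, 7.98 and 7.33 in 4NQO-treated tongues against 7.12, 7.04 and 6.93 in control tongues, without overlap, and a log2 fold change of 0.58 (unadjusted p = 0.0177, adjusted p = 0.382 from limma over all probe sets). The fourth, 1431182_at, gave 0.36 with overlapping groups. The 4 probe sets of Hspa8 thus gave 0.15 to 0.58, and the difference between them was not tested.

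Hsph1, the HSP110 exchange factor, varied more within the groups than between them. Its log2 signal was 10.64, 9.65 and 9.85 in 4NQO-treated tongues, against 10.24, 10.12 and 9.41 in control tongues. The highest value was in 4NQO 1 and the lowest in control 3, while 4NQO 2 and 4NQO 3 lay below control 1 and control 2. A log2 fold change of 0.12 came with a standard error of 0.30 (limma, adjusted p = 0.913), and the second probe set, 1423566_a_at, gave 0.11. Dnajb1, the inducible HSP40 partner of HSP70, had 9.46, 9.49 and 9.29 in 4NQO-treated tongues and 9.42, 8.75 and 9.27 in control tongues. Here control 2 alone stood apart, and both of the other control tongues lay within or next to the range of the 4NQO-treated ones. The log2 fold change of Dnajb1 was 0.27 (limma, standard error 0.19, adjusted p = 0.655) and that of its second probe set, 1416756_at, was 0.19.

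Hspb1, the small heat shock protein HSP25 of mice, had the smallest SD of the 9 genes in both groups. Its main probe set, 1422943_a_at, gave a log2 signal of 13.74, 13.64 and 13.77 in 4NQO-treated tongues, against 13.37, 13.37 and 13.35 in control tongues. The groups did not overlap, and the SD was 0.069 in 4NQO-treated and 0.0085 in control tongues. Hspb1 had a log2 fold change of 0.35 (limma, standard error 0.08, adjusted p = 0.194), or 1.27-fold with a 95% interval of 1.11 to 1.46. The second probe set, 1425964_x_at, had 13.73, 13.58 and 13.75 in 4NQO-treated tongues, against 13.37, 13.31 and 13.33 in control tongues, and also gave 0.35 without overlap.

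Hsp90aa1, the inducible cytosolic HSP90, had 5 probe sets with log2 fold changes from -0.09 to 0.60. By the main one, 1426645_at, the log2 signal was 10.45, 10.22 and 10.29 in 4NQO-treated tongues, against 10.37, 9.91 and 9.40 in control tongues. The 4NQO-treated tongues were alike, while control 1 was among them and control 3 far below. On the log2 scale the fold change was 0.42 (limma, standard error 0.23, adjusted p = 0.565). With almost the same brightness, 1438902_a_at had 10.47, 10.32 and 10.33 in 4NQO-treated tongues and 9.96, 9.84 and 9.51 in control tongues. There the groups did not overlap, and the difference was 0.60 on the log2 scale (unadjusted p = 0.00329, adjusted p = 0.242 from limma over all probe sets). Another bright probe set, 1437497_a_at, gave 0.03. Both remaining ones had mean signals of 3.37 and 2.70 in 4NQO-treated and 3.47 and 2.60 in control tongues, below the array medians of 4.45 to 4.60. No detection call was used for these.

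The mitochondrial chaperonin was measured through Hspd1, the HSP60 subunit, and Hspe1, its HSP10 lid. Hspe1 had a log2 signal of 10.33, 10.10 and 10.16 by 1450668_s_at in 4NQO-treated tongues, against 9.97, 10.01 and 9.74 in control tongues. The groups stood apart by a narrow space, and the log2 fold change was 0.29 (limma, standard error 0.13, adjusted p = 0.495). Affymetrix gives the suffix _s_at to probe sets shared by several transcripts. The other probe set, 1422579_at, gave 0.28, and there 4NQO 2 at 9.64 lay beside control 1 at 9.65. Hspd1 had 11.71, 11.43 and 11.45 in 4NQO-treated tongues, against 11.66, 11.49 and 10.97 in control tongues. 5 of these 6 values lay close together and control 3 was low. The log2 fold change of Hspd1 was 0.16 (limma, standard error 0.19, adjusted p = 0.798).

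**Figure D2:**
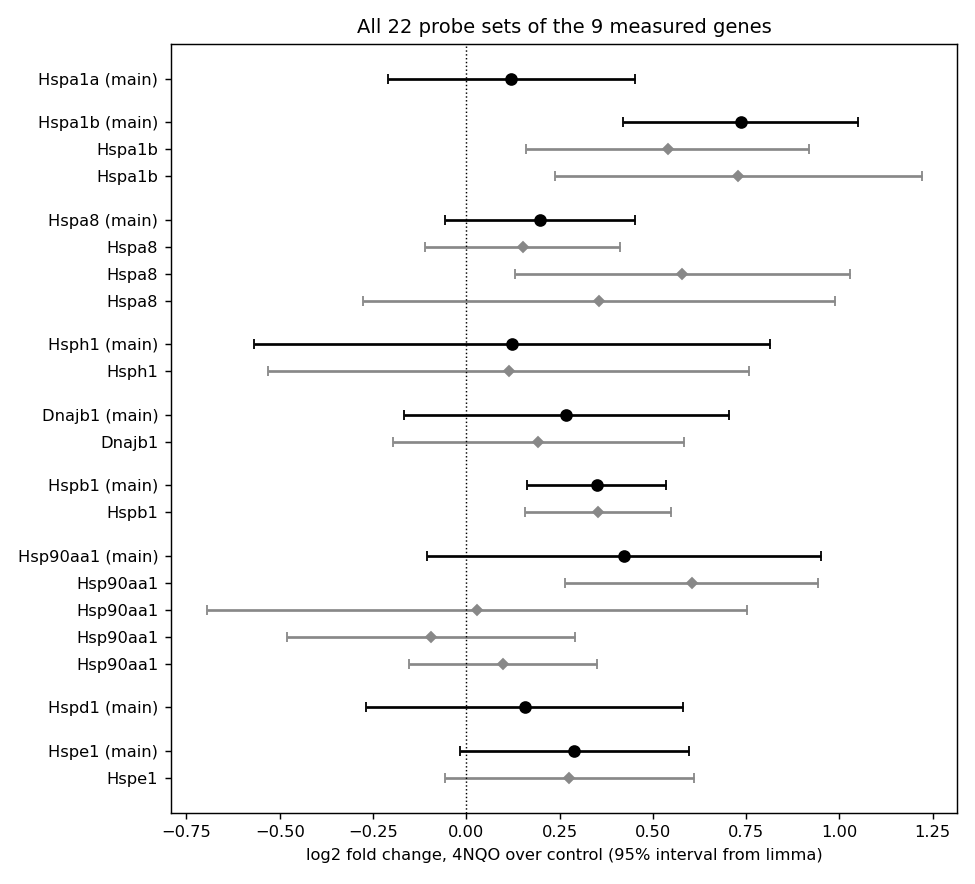
Log2 fold change of 4NQO over control for all 22 probe sets of 9 heat shock protein genes, with 95% intervals from limma fitted over all probe sets, main probe sets in black and others in grey. Of the 22 values 21 lie above 0, and all 3 probe sets of Hspa1b and both of Hspb1 have intervals above 0, as does 1 further probe set each of Hspa8 and Hsp90aa1.

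Over all 22 probe sets, 21 had a log2 fold change above 0 and 8 were higher in every 4NQO-treated tongue than in any control tongue, where 8.61% of all 34945 probe sets of single genes were. None passed at an adjusted p under 0.05 from limma. Every probe set stood apart in this way for Hspa1b and Hspb1 among the 9 genes.

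Control 3 lay low for several of these genes. It was the lowest of all 6 arrays for 6 of the 9 genes, as it was for 11.7% of all genes. 4NQO 1 was the highest of all 6 arrays for 6 of the 9 genes, and its share over all genes was not counted. The 3′ minus 5′ difference of the Gapdh control probe sets is a sign of how evenly the RNA was copied. Control 3 had the largest one, 1.67 on the log2 scale, followed by 4NQO 2 at 1.07. All remaining arrays, 4NQO 1 among them, ranged from 0.09 to 0.47. By the actin control probe sets the same difference was highest in 4NQO 1, at 1.12, with 1.01 in control 3, 0.95 in 4NQO 2 and 0.55 to 0.83 on the others. The part of this in the result was not tested beyond leaving out arrays. Without control 3, the log2 fold change was 0.18 for Hsp90aa1, -0.05 for Hspd1, -0.13 for Hsph1, 0.12 for Hspa8 and 0.20 for Hspe1, but 0.79 for Hspa1b and 0.34 for Hspb1. With control 3 and 4NQO 2, the arrays of weakest 5′ Gapdh signal, both left out, it was 0.72 for Hspa1b, 0.38 for Hspb1, 0.29 for Dnajb1, 0.25 for Hspe1, 0.23 for Hsp90aa1, 0.18 for Hspa1a, 0.12 for Hspa8, 0.07 for Hsph1 and 0.0040 for Hspd1. Without control 2, Dnajb1 had 0.07. Without 4NQO 1, the log2 fold change was -0.18 for Hsph1, 0.07 for Hspd1, 0.14 for Hspa8, 0.22 for Hspe1 and 0.36 for Hsp90aa1. It was then 0.77 for Hspa1b and 0.34 for Hspb1.

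**Figure D3:**
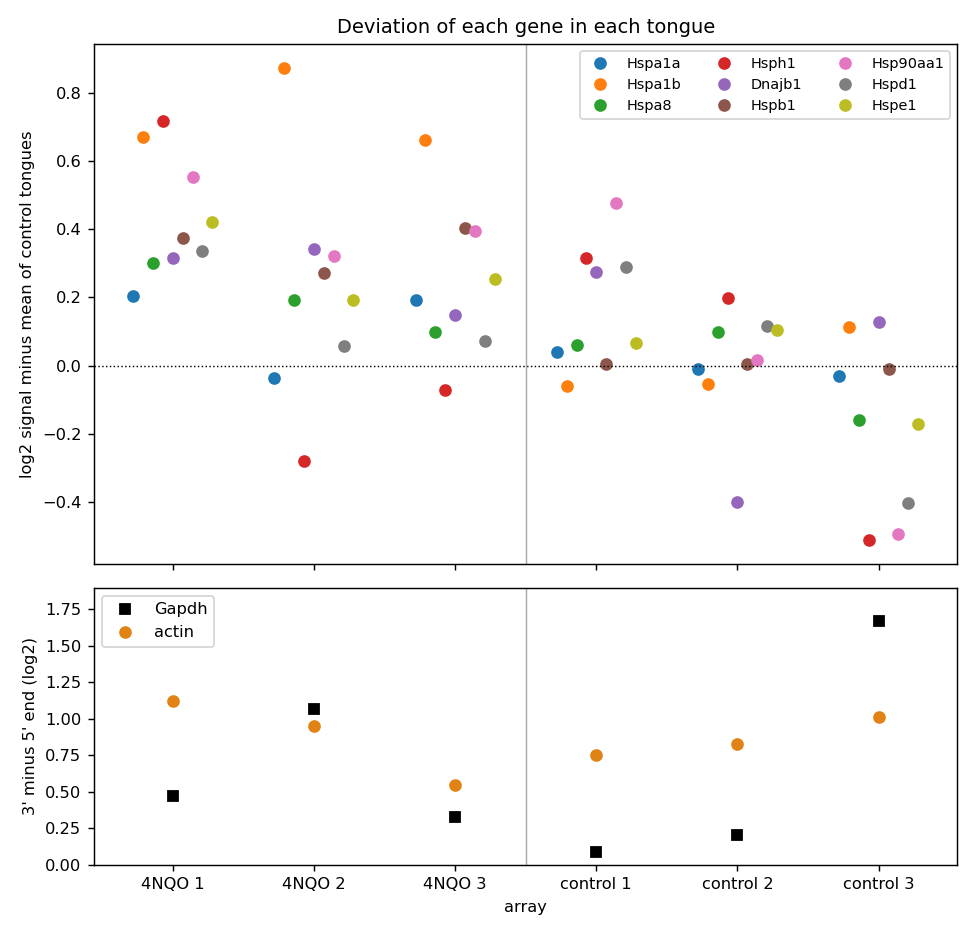
Upper panel, log2 signal of each of 9 heat shock protein genes minus its mean over the control tongues, by array. Lower panel, 3′ minus 5′ difference of the Gapdh and actin control probe sets on the log2 scale. Control 3 has the lowest values of Hsp90aa1, Hsph1, Hspd1, Hspe1 and Hspa8 and the highest Gapdh difference, at 1.67.

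The median over the 9 genes of the log2 signal minus the control mean was 0.37, 0.19 and 0.19 in 4NQO-treated tongues, against 0.07, 0.02 and -0.16 in control tongues. Markers of other processes and cell types were read on the same arrays. All 9 measured proliferation markers were higher without overlap in 4NQO-treated tongue, with a median log2 fold change of 1.34, and 2 of them passed limma's test (Mcm5 and Rrm2). Both calls were lost without control 2, when 0 of all genes passed as higher. The brightest of the list were Pcna and Cdk1. Of 11 suprabasal keratinocyte markers, 10 were above 0 with a median of 0.28, 2 were higher without overlap and 0 passed, with 3 higher by limma's unadjusted p under 0.05. Their summed linear signal was 76000 to 80970 in 4NQO-treated and 54395 to 77553 in control tongues. Krt6a and Krt4, the brightest of this list, had log2 fold changes of 0.34 and -0.20, and Krt16, with Krt6a the other marker that did not overlap, had 0.78. Of 7 basal keratinocyte markers, with Krt14 and Krt5 the brightest, 6 were above 0 with a median of 0.22, none stood apart and 1 was higher by unadjusted p, and their summed signal was 20946 to 27011 in 4NQO-treated and 19884 to 25849 in control tongues. Of 14 skeletal muscle markers, led by Mb and Acta1, 0 were higher and 2 lower without overlap, with a median of -0.15 and a summed signal of 109701 to 121916 in 4NQO-treated and 112269 to 138342 in control tongues. Of 12 leukocyte markers, led by Csf1r at 0.23 and S100a8 at 2.76, 9 were above 0 with a median of 0.27. Of these markers 1 was higher and 1 lower without overlap, 4 were higher and 1 lower by unadjusted p, and 6 lay below a log2 mean of 6.13, the limit used for dim genes, with a summed signal of 1489 to 7190 in 4NQO-treated and 1076 to 1969 in control tongues. Fibroblast markers, led by Dcn and Col3a1, had a median of -0.26 over 8 genes with 2 lower without overlap, and endothelial, salivary gland and adipocyte or Schwann cell markers had medians of -0.02, -0.02 and 0.08. Some gland and fat genes differed widely between arrays of the same group. Lyz2 and Fabp4, the brightest gland and fat genes, ranged less, from 10.68 to 11.90 and from 10.36 to 10.72 over all 6 arrays. Bpifa2, a salivary gland protein, had 2.10, 2.80 and 12.31 in 4NQO-treated tongues, against 2.31, 11.41 and 8.37 in control tongues. Adipoq, the fat cell hormone, had 8.22, 3.37 and 7.92 in 4NQO-treated tongues, against 3.88, 7.86 and 4.23 in control tongues. The groups overlapped for both. The part of all these markers in the heat shock values was not tested.

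Partners, relatives and regulators of these chaperones, other HSF1 targets and immediate early genes were followed through 10 lists. These lists held 110 measured genes besides the 9, and 0 of the 110 passed limma's test over all genes. By limma's unadjusted p under 0.05, 6 of them were higher, and 3 lower, where 6.68% of all genes were higher and 3.74% lower, so these shares were not above those of all genes. The log2 fold change was above 0 for 56 of the 110 and their median was 0.01, beside 47.7% and -0.01 for all genes.

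Among other HSP70 and HSP110 proteins, 4 of 9 were above 0 and the median was -0.15. Hspa14, a ribosome-associated HSP70, had 0.27 without overlap, Hspa4, an HSP110 relative of Hsph1, had 0.21, and Hspa1l, an HSP70 best known from testis and dim here, had -0.62. Among 17 J-domain cochaperones the median was -0.09, and 3 were lower without overlap. These were the dim Dnajc6, which uncoats clathrin vesicles, at -0.48, Dnajc7, which links HSP70 and HSP90, at -0.43, and Dnajc21, a ribosome assembly factor, at -0.29. None of them passed (adjusted p = 0.357 to 0.498 from limma). The other small heat shock proteins, several of them muscle proteins, had a median of -0.18 over 7 genes, with Hspb7 at -0.84, Hspb3 at -0.41 and Hspb6 at -0.18, all with overlapping groups.

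Among 14 measured genes of the HSP90 family and its cochaperones, Fkbp5, an immunophilin that the glucocorticoid receptor induces, had the widest difference. Its log2 signal was 8.50, 8.05 and 8.46 in 4NQO-treated tongues, against 8.84, 9.27 and 10.11 in control tongues. Every 4NQO-treated tongue lay below every control tongue, with control 3 the highest, and the log2 fold change was -1.07 (limma, standard error 0.31, adjusted p = 0.279). Cdc37l1, a relative of the kinase cochaperone Cdc37, had -0.48 and Chordc1, an HSP90 partner, 0.27. The 10 exchange factors and adaptors of HSP70 had a median of -0.02 with none apart, led by Bag4 at -0.20, St13 at 0.20 and Hspbp1 at 0.13.

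Mitochondrial chaperones and proteases other than the HSP60 pair had a median of -0.08 over 14 genes. Yme1l1, a protease of the inner membrane, had 0.38 without overlap (unadjusted p = 0.0457 from limma), Dnaja3, a mitochondrial J protein, had -0.23 and Clpb, a disaggregase, -0.24. The cytosolic chaperonin TRiC and prefoldin had a median of 0.11 over 16 genes, of which 4 were higher without overlap and 12 above 0. Pfdn4, a prefoldin subunit, had 0.49 (unadjusted p = 0.00863, adjusted p = 0.280 from limma), and the TRiC subunits Cct2 and Cct3 had 0.29 and 0.28. Heat shock factors and regulators had a median of 0.13 over 7 genes, with 0 past the threshold and 0 at limma's unadjusted level of 0.05. Of these 7, 5 were dim, so the median rests mostly on weak signals. Sirt1, a deacetylase of HSF1 and among the dim ones, had 0.19, and Dedd2 had 0.16. Hsbp1, a binding protein of HSF1, had 0.13, with the groups barely apart at 10.30 in 4NQO 1 and 10.29 in control 1. Hsf1 itself had no listed probe set.

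Other genes that HSF1 is known to induce had a median of 0.04 over 16 measured, with 11 above 0 and 2 higher without overlap. Cacybp, an adaptor of ubiquitin ligases, had 9.07, 9.30 and 9.14 in 4NQO-treated tongues, against 8.74, 8.61 and 8.64 in control tongues. These groups stood well apart, by 0.51 on the log2 scale (limma, adjusted p = 0.216). Rgs2, a regulator of G protein signalling, had 0.39. Immediate early genes, which respond within minutes to growth factors and to handling of tissue, had a median of 0.02 over 15 genes. Among them Ier3 had 0.58 without overlap, Ier2 0.35 and Klf6 -0.36.

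**Figure D4:**
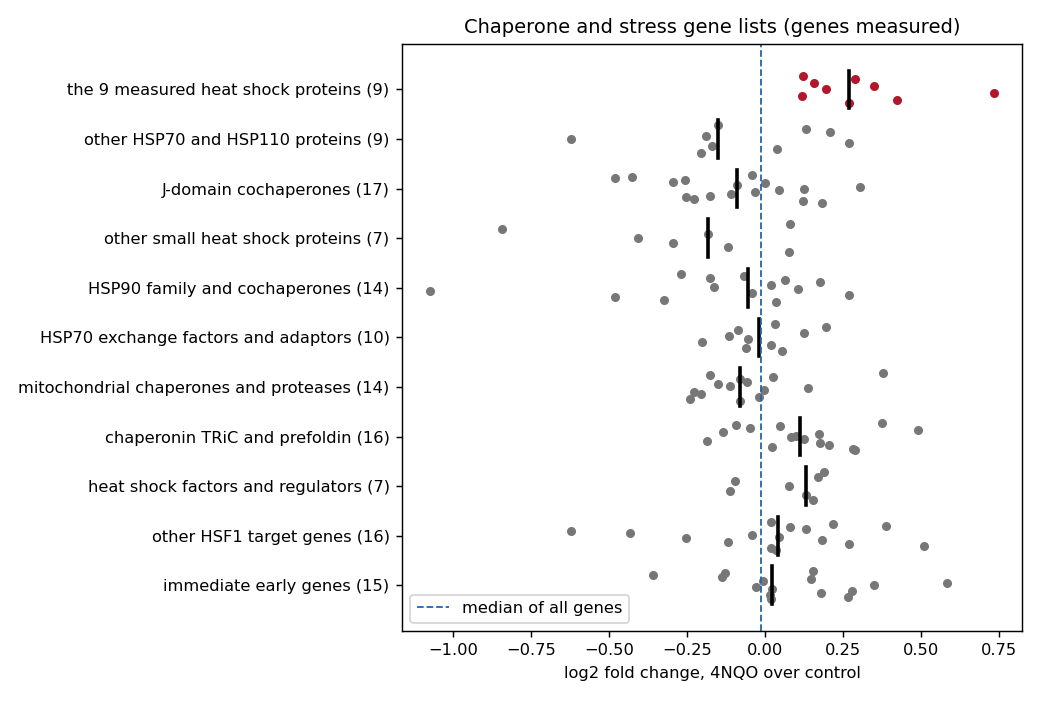
Log2 fold change of 4NQO over control for each gene of the 9 heat shock proteins (red) and of 10 lists of partners, regulators and stress genes (grey), with a black bar for the median of each list and a dashed line for the median of all genes at -0.01. The number of genes measured stands beside each name. The 9 heat shock proteins, which were chosen with earlier results of these data known, all lie above 0 with a median of 0.27. Marker lists are not shown.

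The genes whose profile was nearest to that of a member were sought among 18184 other genes, as the root mean square distance of the log2 signals over 6 arrays after each gene's own mean was taken off. This was done for the 3 members of highest log2 fold change. For Hspa1b the nearest were Pcna, the sliding clamp of DNA replication, at a distance of 0.0482, Txn1, the cytosolic thioredoxin, at 0.0596 and Ranbp1, a Ran-binding protein of nuclear transport, at 0.0686. Pcna had 11.07, 11.36 and 11.07 in 4NQO-treated tongues, against 10.47, 10.37 and 10.59 in control tongues, and as for Hspa1b the highest value of each group was in 4NQO 2 and control 3. The log2 fold changes were 0.69 for Pcna, 0.64 for Txn1 and 0.65 for Ranbp1, and none passed (adjusted p = 0.0908 to 0.104 from limma). For Hsp90aa1 the nearest were Mgst2, a microsomal glutathione transferase, at 0.0812, Lonrf1 at 0.0891 and Fhl2, a LIM-domain protein, at 0.107. For Hspb1 they were Nop9 at 0.0242, Siglecg at 0.0358 and Trmt61a at 0.0360. Siglecg was dim, with log2 signals of 3.78 to 4.25, below the limit of 6.13 used for dim genes. Lonrf1 lay near that limit, at 5.52 to 6.37. A profile over 6 arrays is short, and a small distance says nothing of shared control.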

How the data were processed

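The measurements are Affymetrix mouse array values of 6 tongues, 1 array each. Before deposit, the authors carried out pre-processing with Bioconductor packages in R. Each deposited value is a log2 signal of 1 probe set. By which method arrays were normalized is not stated in any source used here. Scanner files were not used here, so background correction was not varied. Of 45101 probe sets, 34945 had 1 gene, 932 several and 9160 no listed gene, and 64 were array controls. Those of 1 gene were used. Symbols were checked by Entrez ID against RefSeq on GRCm38.p6, which held 18032 of the 18193 genes and changed 0 symbols.

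Groups were compared with limma 3.58.1 in R 4.3.3 (lmFit and eBayes with an intensity trend), 1 probe set per gene, with Benjamini-Hochberg adjustment over all 18193 genes and a threshold of 0.05. Every probe set was also fitted over all 34945. No filter on dim genes was applied. The number of arrays limits the precision. The members and lists were chosen with earlier results of these data known. Named genes are all members, up to 3 genes of smallest p from each pathway list, the brightest 2 of marker lists whose values are given, and the nearest profiles. Krt16, Mcm5, Rrm2 and Adipoq were chosen after their values were seen. SAM was coded anew from the method's description and used every one of the 20 label permutations, at a median of fewer than 1 false positive. The other alternatives were quantile normalization, centring, dim genes left out, other probe set choices, other eBayes settings, a replicate block, each array left out, the 2 arrays of weakest 5′ Gapdh signal left out together and the methods' t-test. Counts at limma's unadjusted p were added after seeing the data. The fit was tested on simulated data with known changes. Promoter letters were searched in 32851 RefSeq windows of 250 bases upstream of a start, of 27025 genes.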

Additional observations from a re-analysis of the deposited data

How the results depend on the processing

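Of 19 alternatives, 10 could move a log2 fold change of the 9 genes. Of their 90 values, 87 kept their direction and 3 turned. The other alternatives change only the test, and 4 of the 171 values under all of them passed, each at a threshold without adjustment. The values that turned were those of Hsph1, which ran from -0.18 to 0.32 over the fits that each left out 1 array, below 0 without 4NQO replicate 1 or control replicate 3, and of Hspd1, which ran from -0.0452 to 0.30 and was below 0 without control replicate 3. The cause was not tested. In all refits with limma, 0 of the 9 genes passed, and the smallest adjusted p was 0.0818 for Hspa1b and 0.0989 for Hspb1, both with arrays centred on their medians. 2 members, Hspa1b and Hspb1, passed at an unadjusted p under 0.05, both by limma and by the methods' t-test. The median log2 fold change of the 9 genes was 0.18 to 0.32 over the fits that each left out 1 array.

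Counts over all genes moved more. From 23 genes higher and 1 lower, the count was 63 higher and 2 lower with centred arrays, which raised the median of all genes to 0.06, 43 and 4 with robust eBayes and 2 lower without an intensity trend. It was 12 higher without dim genes and 15 higher with the mean of a gene's probe sets. It was 59 higher and 0 lower with SAM, 4 higher and 0 lower when control 3 and 4NQO 2 were left out together, and 1 higher with the methods' t-test after Benjamini-Hochberg. Leaving out 1 array at a time gave 0 to 25 higher and 0 to 2 lower, with 0 and 0 without control replicate 2, 1 and 0 without 4NQO replicate 2, 10 and 0 without 4NQO replicate 1, 0 lower without control replicate 3 and 2 lower without 4NQO replicate 3. At an unadjusted p under 0.05, limma gave 1216 higher and 681 lower, the methods' t-test 1046 and 654, and limma 6 and 3 in the pathway lists.

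With the replicate number as a block, 2 genes were higher and 0 lower. Deviations from the group means correlated by 0.29, -0.51 and 0.05 between tongues of the same number. No 4NQO-treated tongue correlated best with the control of its own number. Deviations from a mean of 3 tongues are tied to each other, so these values cannot decide whether the numbers mark pairs. The labels do not say that they do.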
